A study of Papio anubis with 12 samples.

Results

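Genes that store iron and carry it into and out of cells were examined in the precentral gyrus (motor cortex) of 12 baboon neonates, through every probe set whose annotated gene symbol was exactly that of one of the chosen genes. Probe sets were found for 7 genes (FTL, TF, TFRC, SLC40A1, SLC11A2, ACO1 and CP), and these are covered by 24 probe sets of the 54613 tested. Total RNA of each animal was hybridized to 1 Affymetrix HG-U133 Plus 2.0 array, whose probes were designed on human transcripts. For 12 weeks the animals were fed formula C, with no docosahexaenoic acid (DHA) and no arachidonic acid (ARA), formula L with 0.33% DHA and 0.67% ARA, or formula L3 with 1.00% DHA and 0.67% ARA. Each formula had 4 animals, aged 83 to 85 days (C), 84 to 87 days (L) and 83 to 84 days (L3) at necropsy. Males numbered 2 of the C animals, 1 of the L animals and 0 of the L3 animals, so sex was not balanced over the formulas. The question was whether moderate or high dietary DHA changes expression of these genes in the primate cortex. The set was chosen by role in iron handling, with the differences between formulas in these same arrays already known, so the members' differences are read as descriptions.

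Iron reaches brain cells mainly bound to transferrin (TF), which docks on the transferrin receptor (TFRC) and is taken up into endosomes, where the divalent metal transporter SLC11A2 moves the freed iron into the cytosol. Cells store iron inside ferritin, of which FTL is the light chain, and release it through ferroportin (SLC40A1), with the copper oxidase ceruloplasmin (CP) oxidizing iron on its way out. ACO1 is an aconitase that, when iron is scarce, loses its iron-sulfur cluster and binds the iron responsive elements of messenger RNAs for ferritin and TFRC. In the brain, oligodendrocytes make much of the transferrin and microglia and oligodendrocytes hold much of the ferritin. Much of this control acts on translation and RNA stability, so messenger RNA levels are only one part of it.

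None of the 24 probe sets differed between formulas at an adjusted p under 0.05 in limma with Benjamini-Hochberg adjustment over all probe sets, and none of the 54613 did for L/C, L3/C or L3/L. At an unadjusted p under 0.05, 2 of 24 were called for L/C, where 2.42% of all probe sets were. In L3/C it was 1 of 24 against 4.26% of all, and for L3/L 0 of 24 against 5.40%. The lowest adjusted p of any member was 1.00 for L/C, 0.999 for L3/C and 0.891 for L3/L. The multiclass test of any difference among the formulas called 0 of 24, with 0.0931 as the smallest unadjusted p, where 3.67% of all probe sets were called. The log2 difference was above 0 for 15 of 24 probe sets for L/C and 15 of 24 for L3/C, against 49.1% and 49.9% of all probe sets. Their median was 0.23 in both, where the median over all probe sets was -0.01 for L/C and 0.00 for L3/C. The 24 probe sets are repeated readings of 7 genes. By the brightest probe set of each gene, 5 of 7 were above 0 for L/C and 4 of 7 for L3/C, with medians of 0.26 and 0.11. L/C and L3/C share the C arrays. The split for L3/C followed the scaling: with each array centred on its median, 11 of 24 were above 0 with a median of -0.09, beside -0.12 over all probe sets. L3/L had 12 of 24 above 0 (50.5% of all) and a median of -0.01.

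**Figure D1:**
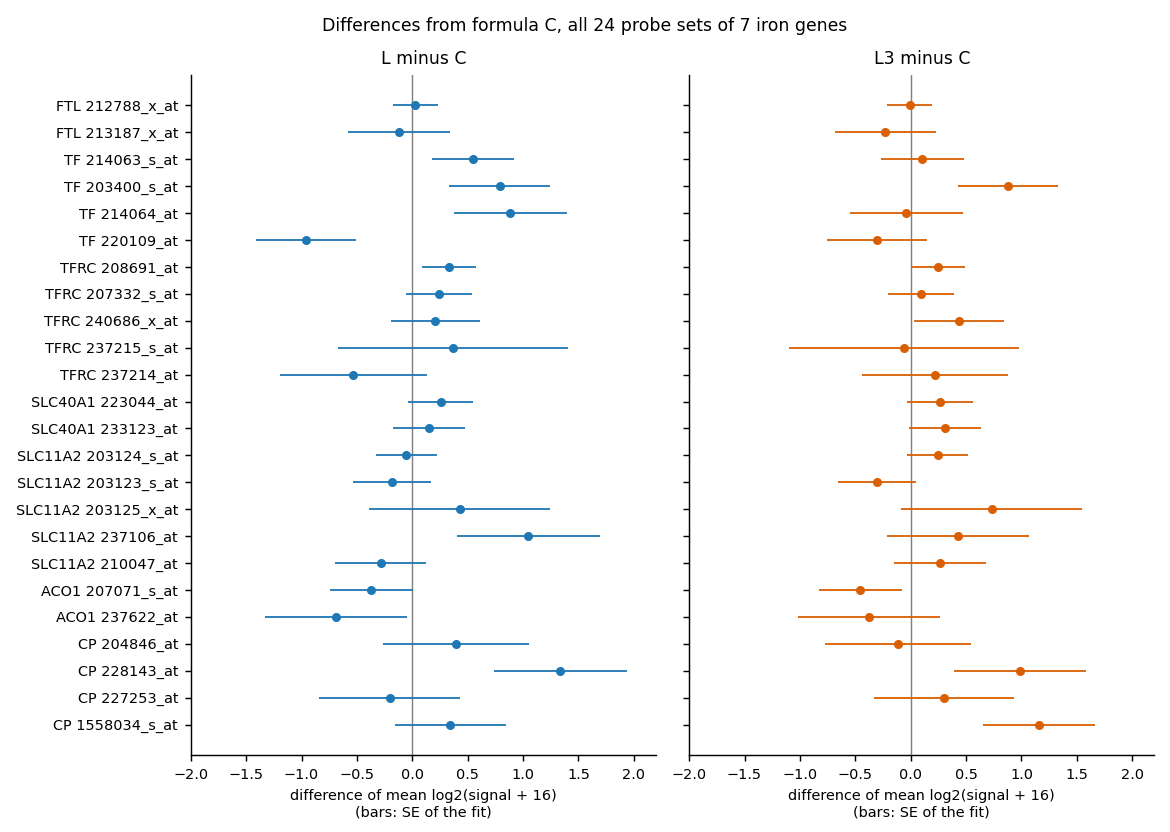
Differences of mean log2(signal + 16) from formula C for all 24 probe sets, L minus C on the left and L3 minus C on the right, with points for the fitted difference and bars for its standard error. Most bars cross 0, and probe sets of 1 gene often lie on opposite sides, as those of TF do for L/C, from -0.96 to 0.89.

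The array gives several readings of most of these genes, and they did not move together from animal to animal. The 2 FTL probe sets correlated across the 12 arrays (r = 0.74, as a description of log2 values that share each array's processing). The 6 pairs of TF probe sets ranged from -0.31 to 0.66 and the 10 pairs of TFRC probe sets from -0.75 to 0.51. The SLC40A1 pair stood at -0.01 and the ACO1 pair at 0.39, while the 10 SLC11A2 pairs ran from -0.53 to 0.36 and the 6 CP pairs from -0.45 to 0.41. For this reason a gene is described below by its brightest probe set, the one with the highest mean, with the others set beside it. Signals of different probe sets are on no common scale and are not compared.

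Ferritin light chain, the storage protein's smaller partner, was read by a pair of probe sets whose signals overlapped in every formula. On 212788_x_at the C arrays gave 5555, 2829, 9228 and 6211, the L arrays 2554, 8954, 5913 and 6889, and the L3 arrays 3148, 5082, 3403 and 7081. Low and high arrays occurred in every formula and the groups overlapped throughout. Mean signals were 5956 ± 2627 (SD, n = 4) in C, 6078 ± 2669 in L and 4678 ± 1817 in L3. After normalization the log2 differences were 0.03 for L/C and -0.01 for L3/C, each with a standard error of 0.20 (exact permutation p = 0.771 and 0.971, two-sided, 4 arrays against 4). The second probe set, 213187_x_at, gave -0.12 and -0.23 with a standard error of 0.46. The sign of these small FTL values turned with the covariate or the array left out.

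The deposited FTL signals differed with the quality measures of the arrays. The 6 arrays with lower signal of the hybridization spike-in controls (mean log2 10.8 to 12.0; 2 of C, 3 of L and 1 of L3) read 5913 to 9228 on 212788_x_at, and the 6 arrays with higher spike-in signal (12.3 to 13.7; 2 of C, 1 of L and 3 of L3) read 2554 to 5555, so the ranges did not overlap. On 213187_x_at they read 4720 to 5746 and 864 to 2896. After normalization the same sets of arrays overlapped, at log2 values of 12.34 to 12.66 and 11.89 to 12.50 on 212788_x_at and 11.91 to 12.20 and 10.10 to 11.93 on 213187_x_at. The arrays with higher spike-in signal also had the higher ratio of the 3' to the 5' control probe set of ACTB, a sign of shortened RNA or cDNA, at 1.86 to 5.98 on the log2 scale against -0.15 to 1.86. Neither measure was found to differ between formulas: spike-in signal gave exact permutation p = 0.6 for L/C and 0.4 for L3/C, and the ACTB ratio 0.457 and 0.629. The part of array quality in the FTL levels was not tested further.

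The microglia markers moved with FTL and with the same arrays. Over 8 measured markers (AIF1, CSF1R, CX3CR1, C1QA, C1QB, C1QC, TYROBP and P2RY12, none at 0), the mean log2 deviation from each gene's average was 0.17 to 0.99 on the low spike-in arrays and -0.86 to -0.28 on the others. Across all 12 arrays FTL correlated with this mean at r = 0.76 (permutation p = 0.0044, adjusted over the 4 relations computed 0.0178) and rho = 0.78 (permutation p = 0.0043, adjusted 0.0171). Without the 2 arrays farthest from the median of the list r was 0.67. Within the 6 low spike-in arrays r was 0.61, and within the other 6 it was 0.78. Summed marker signal ranged from 1944 to 4496 in C, 2226 to 7022 in L and 2245 to 4600 in L3, and in bulk tissue fewer cells of a type and less RNA per cell cannot be told apart. Spike-in signal separated the arrays both by these markers and by deposited FTL signal. The part of array quality in this relation was not tested.

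**Figure D2:**
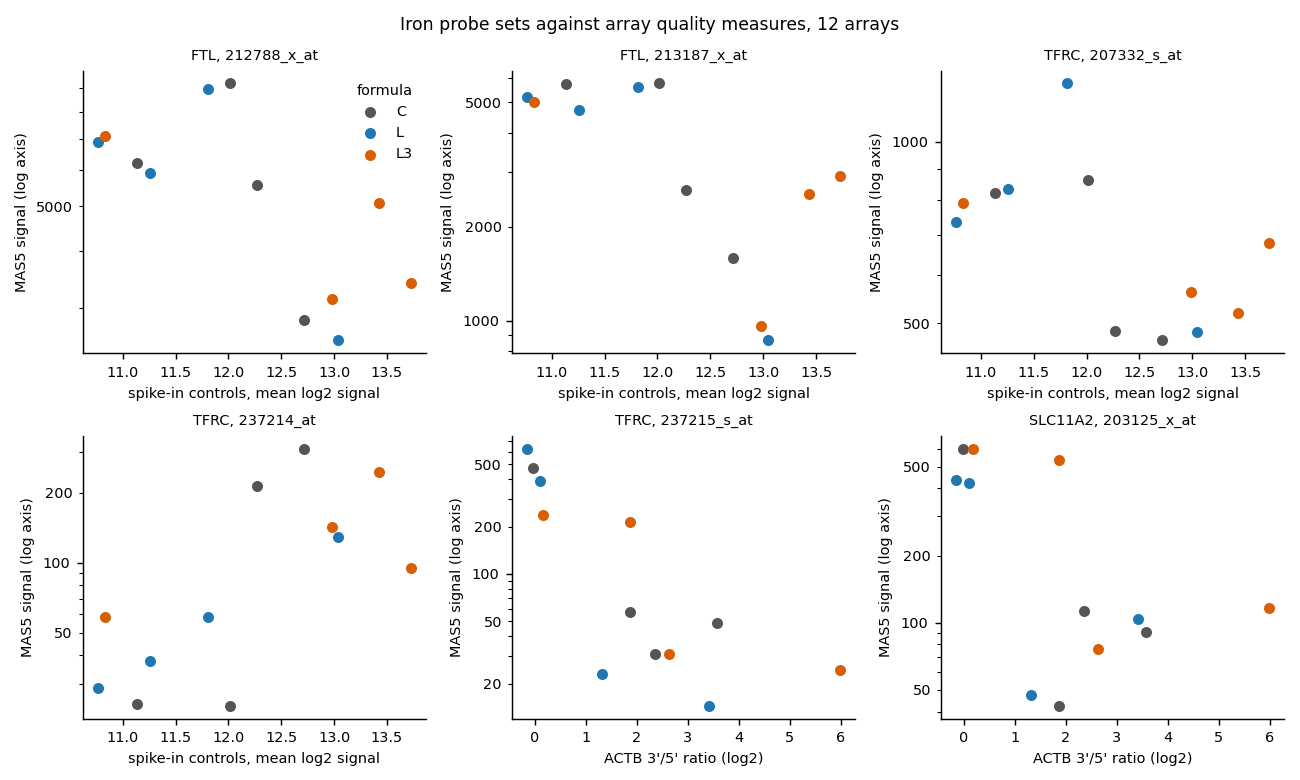
Deposited signal (log axis) of 6 probe sets against the mean log2 signal of the spike-in controls or the log2 ACTB 3'/5' ratio, with 1 point per array coloured by formula. Both FTL probe sets and TFRC 207332_s_at lie higher on the 6 low spike-in arrays and TFRC 237214_at lies lower there. TFRC 237215_s_at and SLC11A2 203125_x_at are high on the 4 arrays with the lowest ACTB ratio and on L3 replicate 3.

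Transferrin, the iron carrier, had its brightest reading from 214063_s_at, at 594, 286, 796 and 922 in C, 576, 1133, 1011 and 908 in L, and 381, 887, 565 and 648 in L3. All formulas overlapped, and L replicates 2 and 3 read above every C array. Means were 649 ± 277 (SD, n = 4) for C, 907 ± 239 for L and 620 ± 210 for L3. The log2 difference was 0.55 (SE 0.37) for L/C, with an exact permutation p of 0.257, and 0.11 (SE 0.37) for L3/C, with 0.83.

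Of the other TF probe sets, 214064_at also had its highest mean in L, and 203400_s_at and 220109_at did not. On 203400_s_at C gave 323, 123, 357 and 477, L gave 658, 646, 425 and 304, and L3 gave 497, 977, 379 and 429. Both supplemented formulas had the higher means here (508 ± 173 and 571 ± 275 against 320 ± 147), with log2 differences of 0.79 and 0.88 (SE 0.45; exact permutation p = 0.171 and 0.2). The L3/C difference of this probe set was 1.21 with sex as a covariate and 1.29 among females, both at an unadjusted limma p under 0.05, and -0.0030 on the low spike-in arrays, of which 1 is an L3 array. Its L/C difference was 1.11 with age as a covariate, at an unadjusted limma p under 0.05, and 0.04 on the low spike-in arrays.

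On TF 214064_at the difference was 0.89 for L/C (SE 0.51, exact permutation p = 0.0857) and -0.04 for L3/C. Among females the L/C value was 1.57, at an unadjusted limma p under 0.05, and on the low spike-in arrays it was 0.30. The dim 220109_at went the other way, from 52.6 ± 40.9 in C to 14.1 ± 7.4 in L, with a log2 difference of -0.96 (SE 0.45, unadjusted limma p = 0.0496, adjusted 1.00, exact permutation p = 0.114), which lost that unadjusted call under 14 of 26 alternatives and was -0.48 among females. In L/C, 3 of the 4 TF probe sets were therefore higher and 1 lower, and none of these 4 differences turned sign under the alternatives run.

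Oligodendrocyte markers gave no steady relation with TF. Over 10 measured markers of that lineage, r with 214063_s_at was 0.33 (permutation p = 0.313, adjusted 0.313) across the 12 arrays and -0.15 without the 2 arrays farthest from the median of the list. The genes whose probe sets followed TF 214063_s_at most closely over the 12 arrays, of 22066 candidate probe sets, were TLK1 (r = 0.96), UBE2F (0.95), LMTK3 (0.95), RAPGEF1 (0.93) and LDB3 (0.93). These are the highest of many correlations over few arrays that share their processing, so they are a description without a test.

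The transferrin receptor, the gate for transferrin-bound iron, was the one member with formulas that did not overlap on normalized values. The deposited signals of 208691_at were 1918, 1410, 2768 and 2355 in C, 1618, 3922, 2759 and 2590 in L, and 2250, 1506, 2897 and 1872 in L3, which overlap. After quantile normalization the C arrays lay at log2 values of 10.83 to 11.0 and the L arrays at 11.05 to 11.45, so that all 4 of L were above all 4 of C. The L3 arrays spanned 10.73 to 11.94 and covered both.

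The log2 difference of this probe set for L/C was 0.33 (SE 0.24, unadjusted limma p = 0.194, adjusted 1.00, exact permutation p = 0.0286). That exact p is the smallest that 4 arrays against 4 can give. Groups did not overlap for 1 of 24 members for L/C, where 2.10% of all probe sets had such groups, and for 0 of 24 for L3/C and for L3/L, where 2.21% and 2.66% had. The difference stayed between 0.26 and 0.40 under all 27 alternatives, some of which change the test and not the difference. In L3/C it was 0.25 (SE 0.24, exact permutation p = 0.457). The other bright probe set, 207332_s_at, gave 0.24 (SE 0.30) for L/C and 0.09 for L3/C.

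TFRC 207332_s_at read 737 to 1248 on the 6 low spike-in arrays and 468 to 678 on the others, with no overlap in deposited signal, while its normalized log2 values of 9.46 to 10.05 and 8.89 to 9.57 overlapped. TFRC 237214_at ran against it, at 24.3 to 58.6 and 95 to 309, and did not overlap after normalization either (5.46 to 6.45 and 6.59 to 8.18). On TFRC 237215_s_at the 4 arrays with an ACTB ratio of -0.15 to 0.17 read 236 to 626 and the other 8 read 14.5 to 215. The 215 was L3 replicate 3, whose ratio was 1.86, and the next array below it read 57.6. The highest of the 12 arrays was 43.2-fold the lowest on that probe set, and its log2 difference for L/C was 0.37 with a standard error of 1.04. Markers of the endothelium, through which TFRC carries iron into the brain, gave r = -0.49 with 208691_at (permutation p = 0.110, adjusted 0.147), 0.31 without the 2 arrays farthest from the median of the list and 0.19 without further normalization.

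Divalent metal transporter SLC11A2, the endosomal exit, overlapped between formulas on its brightest probe set. The signals of 203124_s_at were 696, 730, 1039 and 856 in C, 583, 1349, 714 and 834 in L, and 1269, 796, 849 and 686 in L3. L replicate 2 and L3 replicate 1 stood above the C range, and L replicate 1 and L3 replicate 4 below it. Log2 differences were -0.05 for L/C and 0.24 for L3/C (SE 0.28; exact permutation p = 0.8 and 0.4). The remaining SLC11A2 probe sets ranged from -0.29 to 1.05 for L/C and from -0.30 to 0.73 for L3/C.

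SLC11A2 203125_x_at had a 2-level pattern. It read 602 on C replicate 4, 423 and 436 on L replicates 3 and 4, and 539 and 602 on L3 replicates 3 and 4, while the other 7 arrays read 42.5 to 116. Of these 5 high arrays, 4 are the ones with the lowest ACTB 3'/5' ratio and the fifth is L3 replicate 3, whose ratio was 1.86. Every formula held high and low arrays, and the log2 differences were 0.43 for L/C and 0.73 for L3/C with a standard error of 0.82.

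Ferroportin, the exporter, overlapped between formulas on both of its probe sets. On 223044_at the C arrays read 309, 285, 299 and 284, the L arrays 420, 326, 364 and 297, and the L3 arrays 453, 305, 340 and 446. In deposited signal 3 of the 4 L arrays and 3 of the 4 L3 arrays lay above the whole C range, and after normalization 3 and 2 did. Means were 294 ± 11.9 (SD, n = 4) in C, 352 ± 53.0 in L and 386 ± 75.1 in L3. Log2 differences were 0.26 (SE 0.30, exact permutation p = 0.0571) for L/C and 0.27 (SE 0.30, exact permutation p = 0.257) for L3/C, both with unadjusted limma p-values well above the threshold (0.399 and 0.383).

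The second ferroportin probe set, 233123_at, read 309, 440, 178 and 264 in C, 432, 357, 338 and 206 in L, and 472, 452, 368 and 269 in L3. Its formulas overlapped, with differences of 0.15 and 0.31 (SE 0.33; exact permutation p = 0.543 and 0.2). Although the probe sets did not correlate from array to array, all 4 of these differences were above 0. The L/C and L3/C values of a probe set share the C arrays.

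ACO1, the iron sensor, was the member whose probe sets were lower in both supplemented formulas. On 207071_s_at C read 482, 571, 287 and 385, L read 443, 186, 376 and 354, and L3 read 505, 468, 276 and 162. The highest array was one of C and the lowest one of L3, and the groups overlapped. Log2 differences were -0.37 for L/C and -0.46 for L3/C (SE 0.37; exact permutation p = 0.229 and 0.286), and 237622_at gave -0.69 and -0.37 (SE 0.64). The 207071_s_at differences stayed below 0 under all 27 alternatives, from -0.49 to -0.18 for L/C and from -1.08 to -0.19 for L3/C. Some of these alternatives change the test and not the differences.

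Ceruloplasmin, the copper oxidase that helps iron leave cells and that astrocytes, choroid plexus and meninges make, held the largest positive differences of the members. Its brightest probe set, 204846_at, read 284, 132, 68.1 and 147 in C, 516, 70.9, 150 and 176 in L, and 220, 274, 21.8 and 218 in L3. All formulas overlapped, with differences of 0.40 and -0.11 (SE 0.66; exact permutation p = 0.571 and 0.914).

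CP 228143_at read 214, 26.6, 31.8 and 167 in C, 343, 188, 219 and 155 in L, and 378, 244, 158 and 89.0 in L3. C replicates 2 and 3, the 2 females of that formula, were the lowest of the 12 arrays, while the 2 C males lay among the L arrays. The log2 difference was 1.34 for L/C (SE 0.60, unadjusted limma p = 0.0392, adjusted 1.00, exact permutation p = 0.0857) and 0.99 for L3/C (SE 0.60, exact permutation p = 0.257). With sex as a covariate the L3/C difference was 1.61, and among the females the differences were 2.47 for L/C and 2.11 for L3/C, all at an unadjusted limma p under 0.05. Over the 6 low spike-in arrays they were 1.07 and 0.06 and neither was called, with 1 L3 array among them.

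CP 1558034_s_at, a dim probe set, read 20.4, 16.1, 13.2 and 17.9 in C, 15.5, 43.6, 24.5 and 18.7 in L, and 14.5, 165, 156 and 29.2 in L3. Its high mean in L3 came from L3 replicates 2 and 3, and the other 2 L3 arrays lay within the L range or below it. The log2 difference for L3/C was 1.16 (SE 0.51, unadjusted limma p = 0.0359, adjusted 0.999, exact permutation p = 0.143). It lost that unadjusted call under 11 of 26 alternatives and was 0.41 on the low spike-in arrays. The probe set 227253_at gave -0.20 for L/C and 0.30 for L3/C (SE 0.63).

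**Figure D3:**
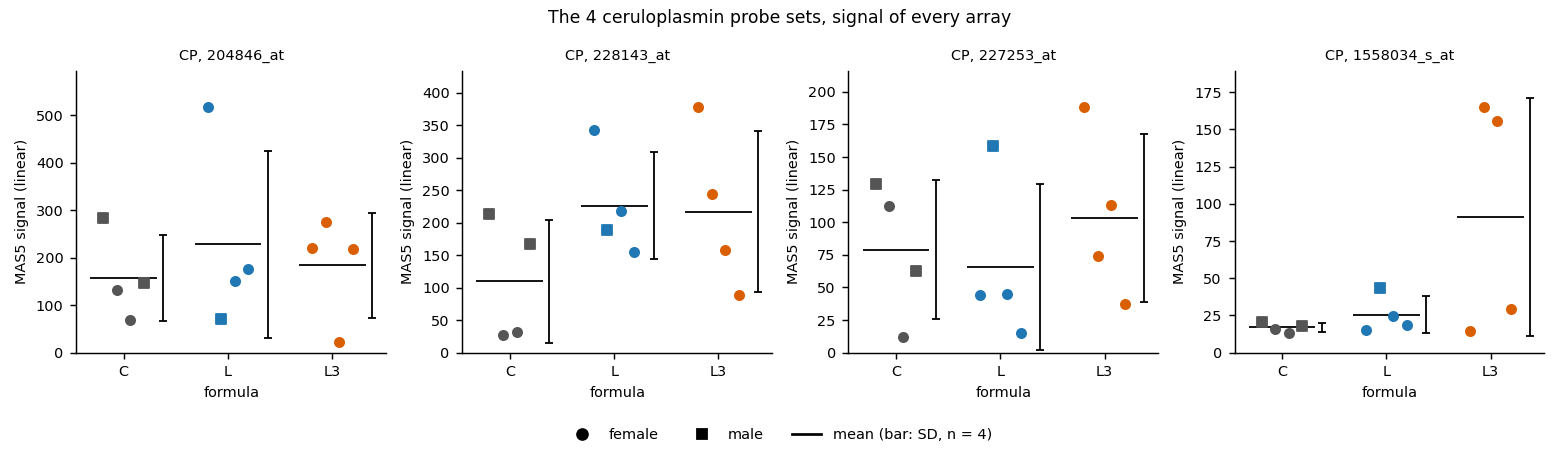
Deposited signal of the 4 CP probe sets on every array by formula, circles for females and squares for males, with the mean and its SD (n = 4). The probe sets order the formulas differently: 228143_at is lowest in the 2 C females, and 1558034_s_at is high in 2 of the 4 L3 arrays.

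Markers of cells that make ceruloplasmin were compared between formulas. These are unadjusted values from 24 comparisons (8 marker lists, 3 pairs of formulas). Over 7 astrocyte markers the mean log2 deviation was -0.03 in C, -0.13 in L and 0.17 in L3 (exact permutation p = 0.457 for L/C, 0.0286 for L3/C and 0.0286 for L3/L). Over 6 choroid plexus markers it was -0.08, -0.32 and 0.40 (exact permutation p = 0.229, 0.0571 and 0.0286), and over 5 meningeal fibroblast markers -0.47, 0.07 and 0.40 (exact permutation p = 0.2, 0.143 and 0.514). From C to L the astrocyte and choroid plexus lists were lower and the meningeal fibroblast list was higher, while CP 228143_at was higher. From C to L3 each of these lists was higher. CP 228143_at (0.99), 1558034_s_at (1.16) and 227253_at (0.30) were also higher there, and 204846_at was lower (-0.11). None of those markers was at 0. Across the 12 arrays CP 204846_at had r = -0.60 with the astrocyte list (permutation p = 0.0458, adjusted 0.0917) and 0.26 without the 2 arrays farthest from the list's median. Their part in the CP values was not tested.

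**Figure D4:**
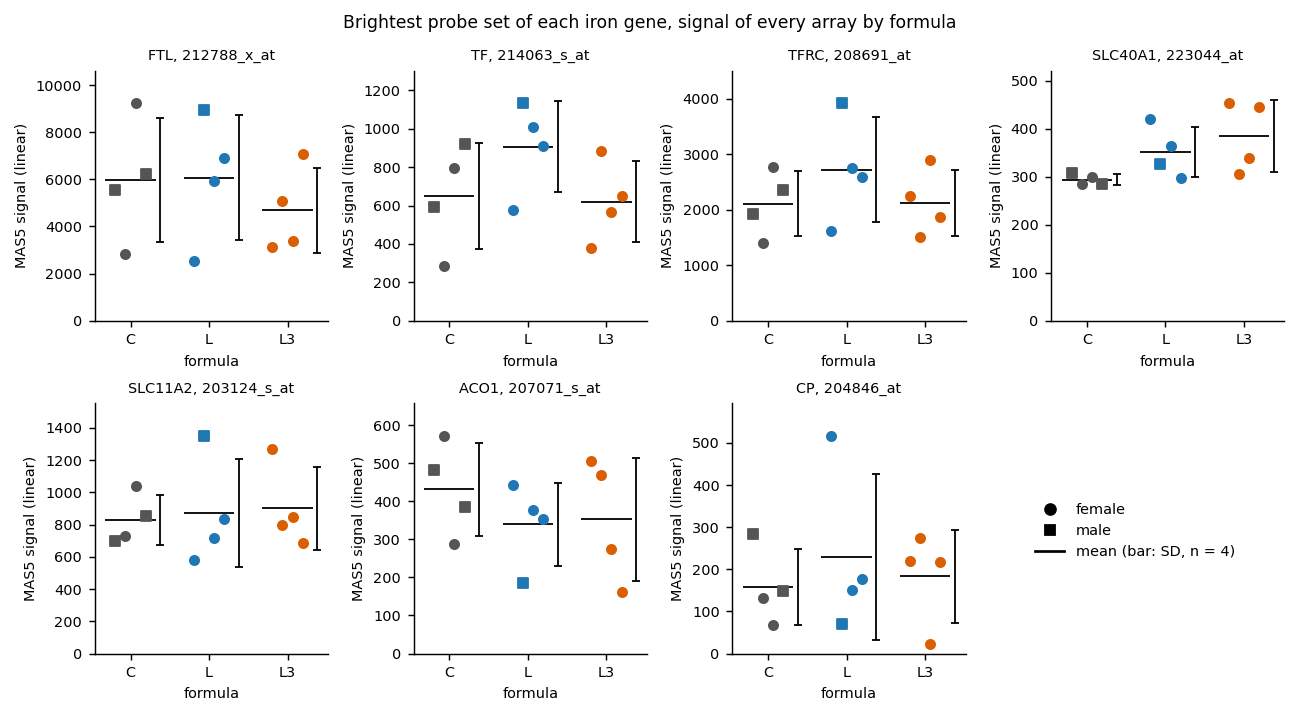
Deposited MAS5 signal of the brightest probe set of each of the 7 genes on every array by formula, circles for females and squares for males, with the mean and its SD (n = 4). Formulas overlap in all 7 panels; SLC40A1 in C spans 284 to 309.

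The wider iron pathway was read through 66 other measured genes of uptake, storage, mitochondrial iron, heme and brain iron disease, each by its brightest probe set. In L/C 37 of 66 were higher with a median log2 difference of 0.04, and 1 passed an unadjusted p under 0.05, against 2.42% of all probe sets. In L3/C 34 of 66 were higher with a median of 0.01, and 4 passed, 1 of them higher and 3 lower, which is 6.06% against 4.26% of all. In L3/L 31 of 66 were higher with a median of -0.03, and 4 passed, 6.06% against 5.40% of all. None passed an adjusted p under 0.05.

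In L/C the 3 genes with the smallest p were SLC25A28, TFR2 and ALAD, all lower in L. They have 3, 3 and 2 probe sets, of which only the brightest of each is given here. SLC25A28 (mitoferrin 2, which carries iron into mitochondria) read 424, 397, 628 and 353 in C and 273, 233, 219 and 223 in L, with no overlap. In L/C 2.10% of all probe sets had normalized values without overlap. L3 read 624, 473, 639 and 231, so the lower level was not shared by 3 of its 4 arrays. The log2 difference for L/C was -0.78 (SE 0.34, unadjusted limma p = 0.0376, adjusted 1.00, exact permutation p = 0.0286), and it lost that unadjusted call under 8 of 27 alternatives. TFR2, a second transferrin receptor that senses iron in liver, differed by -0.98 (SE 0.49, exact permutation p = 0.114) for L/C and -1.08 (exact permutation p = 0.0857) for L3/C, where it lost the unadjusted call under 13 of 27 alternatives and was -0.66 on the low spike-in arrays. ALAD, an early enzyme of heme synthesis, read 252 to 319 in C, 52.1 to 247 in L and 64.4 to 267 in L3. Its log2 difference was -1.03 for L/C (SE 0.52, unadjusted limma p = 0.0660, exact permutation p = 0.0571). For L3/C it was -0.90 (SE 0.52, unadjusted limma p = 0.104, exact permutation p = 0.0286).

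In L3/C the smallest p-values were those of COASY, STEAP2 and TFR2, all lower. COASY makes coenzyme A, and mutations in it cause a neurodegeneration with iron accumulation in the brain. It read 584, 104, 724 and 430 in C, 635, 399, 214 and 473 in L, and 38.9, 20.8, 31.7 and 109 in L3. All 4 L3 arrays were below all 4 L arrays, and only C replicate 2 reached down to them. In L3/L 2.66% of all probe sets had normalized values without overlap. COASY was read by 1 probe set only, as was STEAP2.

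The COASY log2 difference was -2.71 for L3/C (SE 0.60, unadjusted limma p = 0.000348, adjusted 0.999, exact permutation p = 0.0571) and 0.22 for L/C. STEAP2, a metal reductase of endosomes, read 305, 76.2, 89.1 and 128 in C and 54.1, 45.7, 62.2 and 69.8 in L3, a difference of -1.09 (SE 0.49, exact permutation p = 0.0571). The STEAP2 difference was -0.54 among females and -0.64 on the low spike-in arrays, and lost the unadjusted call under 15 of 26 alternatives. HFE, the hemochromatosis protein that binds TFRC, had 15 probe sets, of which 7 were higher for L/C (range -0.75 to 0.58) and 8 for L3/C (range -1.63 to 0.41).

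The genes of brain iron accumulation disease were the list with the most uniform sign. In L3/C 0 of 8 were higher, with a median of -0.31, where 49.9% of all probe sets were above 0, and for L/C 5 of 8 were higher with a median of 0.11. After COASY the lower ones in L3 were ATP13A2 (-0.56, SE 0.42), DCAF17 (-0.51, SE 0.59) and PLA2G6 (-0.43, SE 0.31), and PANK2, FA2H, C19orf12 and WDR45 lay between -0.19 and -0.01. The study had already reported PLA2G6 as lower in both supplemented formulas on these same arrays. The sign of PLA2G6 was thus known beforehand, and the count of 0 of 8 is a description. Of the 8, 1 passed an unadjusted p under 0.05, where 4.26% of all probe sets did. Under the alternatives the median ran from -0.50 to -0.06. The number above 0 stayed at 0 under 14 of 27 alternatives. Some of these change the test and not the differences, and others only leave out arrays of formula L. It was 4 on the low spike-in arrays, 3 without L3 replicate 2, and 2 with age or with spike-in signal as a covariate. Under the remaining alternatives it was 1. These were no further normalization, a sex or ACTB ratio covariate, array weights, and leaving out C replicate 2, 3 or 4 or L3 replicate 1 or 3.

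**Figure D5:**
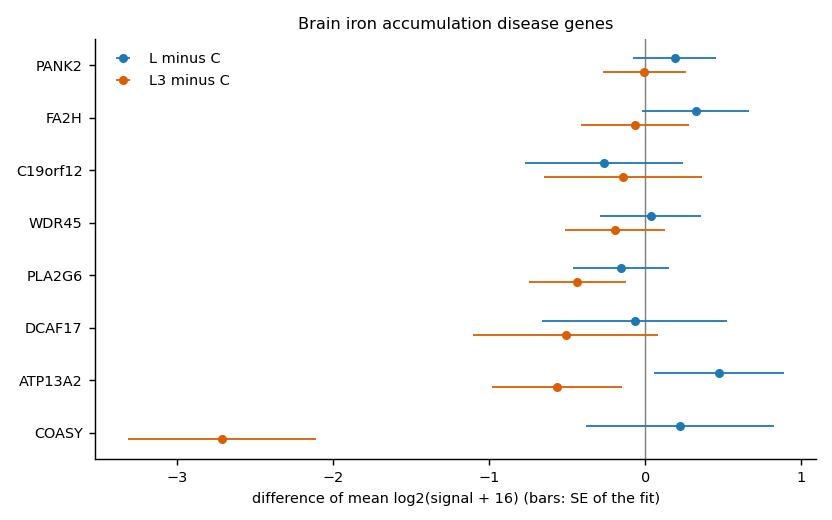
Differences of mean log2(signal + 16) of 8 brain iron accumulation disease genes, L minus C and L3 minus C, with bars for the standard error of the fit. All 8 L3 points lie below 0 (7 of 8 without further normalization), and COASY at -2.71 is the one far from it.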

How the data were processed

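MAS5 signals of 54675 probe sets on 12 arrays were deposited by the authors as an intensity on a linear scale, from GCOS, scaled to a common trimmed mean; the RMA values that the study's methods describe were not used here. The 62 control probe sets were left out, log2(signal + 16) was quantile normalized, and limma 3.58.1 (R 4.3.3) estimated the mean of each of the 3 groups, leaving 9 residual degrees of freedom, with a variance trend, with Benjamini-Hochberg adjustment over 54613 probe sets. Exact permutation tests compared 4 arrays with 4. Precision rests on 4 arrays per formula. Genes were named from the platform annotation by a single symbol. Named were all members, and among other iron genes HFE and the 3 genes of smallest p for each of L/C and L3/C. Members, lists and alternatives were chosen with earlier results of these data known. Of 9 genes chosen, 2 are not reported here. The main fit was tested on simulated data. Alternatives are given in the closing section.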

Additional observations from a re-analysis of the deposited data

Results flagged for a closer look

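In 72 groups of 4 arrays (24 probe sets in 3 formulas), a single array lay far from the other 3 in 6 groups, where chance flags about 1 in 20 groups. FTL 213187_x_at was low on L replicate 1, at a normalized log2 value of 10.11 against 11.91 to 12.08, an array with higher spike-in signal. SLC11A2 237106_at was high on C replicate 1 (8.0 against 5.57 to 5.78). ACO1 207071_s_at was low on L replicate 2 (7.90 against 8.60 to 8.73). ACO1 237622_at was low on C replicate 2 (6.07 against 7.81 to 7.93) and on L3 replicate 4 (5.53 against 7.35 to 7.72). CP 204846_at was low on L3 replicate 3 (5.17 against 7.73 to 8.04).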

How the results depend on the processing

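No member or other iron gene had an adjusted p under 0.05 under any alternative that was run, and the counts here are at an unadjusted p under 0.05. Of 35 named log2 differences, 21 never changed sign, among them the SLC40A1 and ACO1 values, TFRC 208691_at for L/C, CP 228143_at, CP 1558034_s_at and the L3/C difference of COASY. Percentages in brackets give the share of all probe sets that the same fit called. The methods' test called 0 members for L/C (2.64%) and 0 for L3/C (4.29%), and 2 other iron genes for L/C. Restricting to brighter probe sets left 1 member for L/C (1.73% of those tested) and 0 for L3/C (3.48%). Without a variance trend 1 member and 3 other iron genes were called for L/C (2.74%). A pseudocount of 1 left 0 members for L3/C (4.23%). With a sex covariate 1 member was called for L/C (2.34%), 3 for L3/C (3.22%), 1 for L3/L (4.40%) and 1 for any difference. That fit called 2 other iron genes for L3/C. In the fit to females, 2 members were called for L3/C (2.97%) and 1 for any difference, with 0 other iron genes for L/C (2.94%). An age covariate gave 3 members for L/C (3.60%) and 0 for L3/C (3.80%). It gave 2 other iron genes for L/C and 1 for L3/L (5.03%). A spike-in covariate gave 0 members for L3/C (3.68%) and 2 other iron genes each for L3/C and L3/L (4.01%). The ACTB ratio as a covariate gave 1 member for L/C (3.07%) and 1 for any difference. It gave 2 other iron genes each for L/C and L3/C (4.67%). A fit to only the 8 arrays compared gave 2 other iron genes for L/C (2.93%) and 1 for L3/C (3.81%). Array weights gave 4 for L/C (5.05%) and 7 for L3/L (7.69%), and no further normalization 1 for L3/C (3.93%). Taking all probe sets of a gene gave 3, 8 and 9 genes for L/C, L3/C and L3/L. Of their 175 probe sets 1.71%, 5.71% and 5.14% were called, against 2.42%, 4.26% and 5.40% of all. The fit to only the 6 low spike-in arrays was chosen after seeing the data. It holds 2 arrays of C, 3 of L and 1 of L3, which is taken to vary like the others, so its counts are not given. The cause of these changes was not tested.

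Some differences turned sign. FTL 212788_x_at gave -0.022 (spike-in) and -0.037 (ACTB ratio) for L/C, and 0.11 (sex), 0.10 (females only), 0.10 (spike-in), 0.052 (ACTB ratio) and 0.23 (low spike-in arrays) for L3/C. FTL 213187_x_at gave 0.10 with array weights for L/C, and 0.12 (spike-in), 0.051 (ACTB ratio) and 0.071 (low spike-in arrays) for L3/C. TF 214063_s_at for L3/C gave -0.0052 without further normalization, -0.18 with centring, -0.11 with array weights and -0.37 on the low spike-in arrays, where TF 203400_s_at gave -0.0030. TF 214064_at for L3/C gave 0.073 without further normalization, 0.037 (sex), 0.43 (females only) and 0.034 (spike-in). TF 220109_at for L3/C gave 0.21 (sex), 0.34 (females only) and 0.074 (low spike-in arrays). TFRC 208691_at for L3/C gave -0.16 with centring and -0.28 on the low spike-in arrays. SLC11A2 203124_s_at gave 0.014, 0.047 and 0.0051 for L/C without further normalization, with centring and with the ACTB ratio, and -0.077 and -0.40 for L3/C with centring and on the low spike-in arrays. CP 204846_at for L3/C gave 0.38 (females only), 0.013 (array weights) and 0.89 (low spike-in arrays), and COASY for L/C gave -0.26 (array weights) and -0.67 (low spike-in arrays). The relation of CP with astrocyte markers was -0.57 without further normalization (permutation p = 0.0638) and 0.26 without the 2 outlying arrays, that of TF with oligodendrocyte markers -0.15, and that of TFRC with endothelial markers 0.19 and 0.31.

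Leaving out each array in turn gave 0 to 2 members for L/C, 0 to 3 for L3/C and 0 to 1 for L3/L. For any difference it gave 0 to 2. Other iron genes numbered 0 to 2 for L/C, 1 to 7 for L3/C and 1 to 9 for L3/L. These fits called 1.89% to 3.46% of all probe sets for L/C, 3.63% to 7.88% for L3/C and 4.12% to 9.95% for L3/L. The 7 other iron genes for L3/C came without L3 replicate 4, the fit that called 7.88%. CP 228143_at for L/C ranged from 0.86 (without C replicate 2) to 1.73, and lost its unadjusted call also without C replicate 3 or L replicates 1, 2 or 3. TF 220109_at ranged from -1.28 to -0.62 (without C replicate 1). CP 1558034_s_at for L3/C ranged from 0.78 (without L3 replicate 2) to 1.63, and SLC25A28 from -0.86 to -0.61 (without C replicate 3). COASY for L3/C ranged from -3.35 to -2.41 and was called each time, while STEAP2 (-1.40 to -0.75) and TFR2 (-1.42 to -0.83) lost the call without 1 of 8 arrays each. For L/C, FTL 212788_x_at ranged from -0.11 to 0.12, FTL 213187_x_at from -0.33 to 0.36, SLC11A2 203124_s_at from -0.22 to 0.068, CP 204846_at from -0.037 to 0.74 and COASY from -0.40 to 0.51. For L3/C, FTL 212788_x_at ranged from -0.15 to 0.12, FTL 213187_x_at from -0.47 to 0.21, TF 214063_s_at from -0.26 to 0.35, TF 214064_at from -0.39 to 0.22, TF 220109_at from -0.64 to 0.024, TFRC 208691_at from -0.0057 to 0.40 and CP 204846_at from -0.38 to 0.57.

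Replicate numbers were not taken to pair the arrays: of 12 same-numbered pairs, the 3 of replicate 1 (r = 0.14 to 0.19) and the 3 of replicate 4 (0.26 to 0.33) correlated above 0.1 and the other 6 did not (-0.09 to 0.06). Replicate 1 arrays all had higher and replicate 4 arrays all lower spike-in signal, and 6 of 12 arrays correlated best with a same-numbered array of another formula. The replicate block gave 2 members for L/C, 1 for L3/C and 0 for L3/L, and 3.11%, 5.19% and 7.01% of all probe sets. This block, the variance trend, the methods' test and the restriction to brighter probe sets change the test and not the differences, so an unchanged sign there says nothing about stability. The smallest p of an exact test of 4 against 4 is 0.0286, and the pseudocount of 16 understates log2 differences of dim probe sets such as TF 220109_at and CP 1558034_s_at. Some planned relations and the check of sequence features were not run.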
